A study of Mus musculus with 9 samples.

Results

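The levels of 32 genes of cortical excitatory neurons and their progenitors were examined in RNA-seq libraries of dissected embryonic striatum. They were found by matching the Ensembl identifiers of the 44886 genes counted in each library to a list of symbols through GENCODE M21, and all 32 were found. Of these, 29 passed the filter on low counts and were tested among 16368 genes. The other 3, Lhx9, Neurog1 and Trp73, are described by their counts alone. RNA was sequenced from the striatum of single mouse embryos at E17.5, with 3 embryos in each of 3 genotypes on a strain labelled C57BL/6. The 3 control embryos are labelled Control with no alleles named. The study's methods describe control embryos as heterozygous, so an altered Ebf1 allele or a Cre allele may be present in them. Islet1Cre;Ebf1fl/- embryos carry a floxed and a null allele of Ebf1, which encodes a transcription factor of direct pathway striatal projection neurons (dSPN), and Cre at the Islet1 locus, which recombines in dSPN and cholinergic interneurons. Dlx5/6::Cre;Ebf1fl/- embryos carry the same Ebf1 alleles and a Cre transgene driven by Dlx5/6 regulatory elements, which acts in all striatal projection neurons (SPN) and in interneurons. The methods place the Islet1Cre line on a B6D2F1/J background. Both mutants thus share a null Ebf1 allele in every cell of the embryo, in addition to the deletion in Cre-expressing cells.

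Cortical excitatory neurons arise from progenitors of the dorsal telencephalon, the pallium, whereas SPN arise from the lateral ganglionic eminence of the ventral telencephalon. Pallial progenitors use the homeodomain and zinc finger factors Emx1, Emx2, Lhx2 and Dmrta2, then proneural Neurog2 and the intermediate progenitor factor Eomes. Their postmitotic progeny switch on the Neurod family and Tbr1, acquire laminar factors such as Fezf2, and load glutamate into synaptic vesicles through Slc17a7 and Slc17a6. Several of the listed genes, Tle4, Cux1, Pou3f1 and Zbtb18 among them, are not restricted to the pallium, and a gene being on the list does not say which cells of the dissected tissue made its RNA. In bulk tissue, fewer cells of a type and less RNA per cell cannot be told apart.

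The promoters of 4 of these genes are shown because they encode pallial transcription factors on which the results turn: Neurod2 and Tbr1 were among the genes closest to Neurod6 across embryos, and Fezf2 had the largest estimated fold change over controls. RefSeq windows (GRCm38.p6) ran from 250 bases before to 50 bases after a gene's start and were present for 26 of the 32 genes. Each is printed 5′ to 3′ on the strand of the gene, with every E-box, the CANNTG motif read by Neurod and Neurog factors, in capitals.
Neurod6 (chr6:55681214-55681513, minus strand): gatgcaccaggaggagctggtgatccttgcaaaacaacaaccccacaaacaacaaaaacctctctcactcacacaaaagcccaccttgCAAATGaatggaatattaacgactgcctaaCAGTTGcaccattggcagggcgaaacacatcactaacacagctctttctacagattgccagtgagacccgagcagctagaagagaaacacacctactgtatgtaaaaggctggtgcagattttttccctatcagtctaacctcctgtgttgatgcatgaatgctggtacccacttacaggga
Neurod2 (chr11:98329596-98329895, minus strand): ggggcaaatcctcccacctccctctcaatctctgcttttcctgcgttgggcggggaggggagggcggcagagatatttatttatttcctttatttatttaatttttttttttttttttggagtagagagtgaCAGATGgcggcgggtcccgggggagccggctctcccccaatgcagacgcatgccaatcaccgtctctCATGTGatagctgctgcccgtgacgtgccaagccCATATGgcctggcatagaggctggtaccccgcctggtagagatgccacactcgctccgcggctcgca
Tbr1 (chr2:61804203-61804502, plus strand): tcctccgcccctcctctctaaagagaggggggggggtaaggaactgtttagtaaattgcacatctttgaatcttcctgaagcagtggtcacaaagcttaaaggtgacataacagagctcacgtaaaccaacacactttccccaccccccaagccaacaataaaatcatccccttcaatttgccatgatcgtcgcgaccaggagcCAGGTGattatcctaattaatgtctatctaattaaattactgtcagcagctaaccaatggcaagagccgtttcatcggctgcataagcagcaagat
Fezf2 (chr14:12345816-12346115, minus strand): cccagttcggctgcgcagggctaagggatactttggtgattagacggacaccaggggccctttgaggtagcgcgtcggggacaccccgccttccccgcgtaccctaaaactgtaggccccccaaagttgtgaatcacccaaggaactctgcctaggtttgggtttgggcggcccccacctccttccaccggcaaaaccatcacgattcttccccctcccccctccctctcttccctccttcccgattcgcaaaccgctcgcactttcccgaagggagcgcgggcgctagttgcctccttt
The windows held 2 E-boxes in Neurod6, 3 in Neurod2, 1 in Tbr1 and 0 in Fezf2. Among all 32851 windows of this length, 72.3% held at least 1 E-box on either strand, and 26 of the 38 windows of the listed genes (68.4%) did. Its form CAGATG or CATCTG, which overlaps the E-box, was in 17.2% of all windows and in 9 of the 38, among them that of Neurod2. Several of these 9 were windows of a single gene, Zbtb18, and some of those overlap each other. The 9 windows are therefore not separate genes. The core sequence bound by Ebf factors, CCCNNGGG, was in 13.7% of all windows and in 8 of the 38 (21.1%), again including that of Neurod2. These matches describe letters in a window and not bound sites, and a missing match says nothing about a factor. Windows of Nptx1, Bhlhe22, Wnt7b, Sla, Pou3f1 and Nrn1 were not analysed here.

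Libraries held between 16548083 and 41507049 counts. Values are given as counts per 1000000 counts of a library (CPM), and 3 counts correspond to 0.0723 to 0.181 CPM. Ebf1 itself, counted over the whole gene, lay between 269 and 466 CPM in controls, 446 and 497 CPM in Islet1Cre;Ebf1fl/- and 391 and 494 CPM in Dlx5/6::Cre;Ebf1fl/- embryos, so whole-gene counts do not show the deletion. The labelled tissue was checked with 14 SPN markers, including Ppp1r1b, Bcl11b and Foxp1, whose summed level was 2586 to 3664 CPM and of which none was at 0. Foxp1, a forkhead factor gene, was the only marker of the 14 called in Dlx5/6::Cre;Ebf1fl/- embryos against controls. It fell by 0.53 on the log2 scale (edgeR adjusted p = 0.0305), where 1.34% of all genes tested were called lower. The median of the 14 was 0.02, with estimates from -1.12 to 0.53. The paper, with its own test, reports no significant change of generic SPN identity genes in the mutants. Both Xist and Y-linked RNA were present in Islet1Cre;Ebf1fl/- embryo 3 (245 and 82.7 CPM) and Control embryo 3 (396 and 9.69 CPM). Control embryo 2 had Y-linked RNA with 0.107 CPM of Xist, and the other 6 libraries had at most 0.123 CPM of Y-linked RNA. Whether the 2 libraries with both held RNA of more than 1 embryo was not tested. Without Control embryo 3, the median log2 fold change of the listed genes over controls was -0.15 in Islet1Cre;Ebf1fl/- and 0.64 in Dlx5/6::Cre;Ebf1fl/- embryos, and without Islet1Cre;Ebf1fl/- embryo 3 it was -0.09 and 0.87. Dlx5/6::Cre;Ebf1fl/- embryo 1 stood apart in the listed genes themselves, and results of its genotype are given with and without it where leaving it out moved them by more than 1.5 times.

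Set beside each other per kilobase of exon, the listed genes spanned a wide range of levels in control striatum. The highest mean level was that of Mpped1, a metallophosphoesterase gene, at 84.7 ± 6.77 CPM per kb (SD, n = 3). Tle4, a Groucho-family corepressor of deep layer neurons, followed with 22.3 ± 3.59 CPM per kb. The zinc finger repressor gene Zbtb18 (12.3 ± 1.35 CPM per kb) and the POU factor gene Pou3f1 (11.3 ± 1.72 CPM per kb) were next in order, and their control ranges overlapped. The somatostatin receptor gene Sstr2 was at 7.78 ± 1.77 CPM per kb, close to Cux1 at 7.52 ± 0.43 CPM per kb, and these did not differ beyond their spread. Genes that mark the cortical glutamatergic lineage more narrowly came lower, with Neurod6 at 6.17 ± 2.73, Neurod2 at 5.61 ± 2.64 and Tbr1 at 3.3 ± 0.834 CPM per kb, and with overlapping ranges. Slc17a7, the vesicular glutamate transporter gene of most cortical neurons, was the lowest of the genes tested, at 0.135 ± 0.0940 CPM per kb, below Slc17a6 at 1.06 ± 0.248 CPM per kb.

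**Figure D1:**
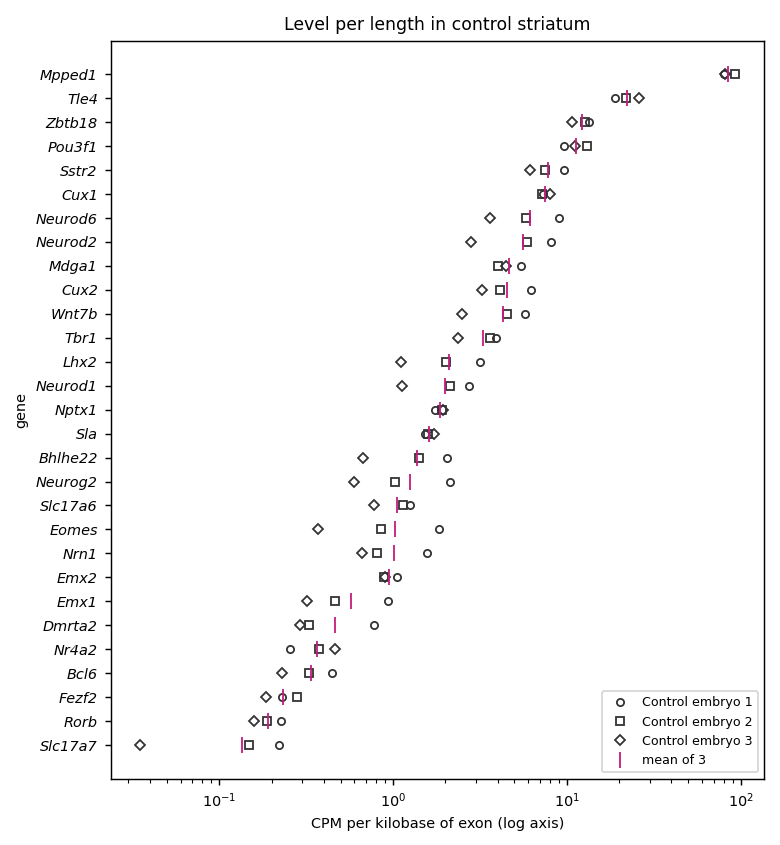
Level of the 29 genes tested in the 3 control embryos, as CPM per kilobase of exon on a log axis (open symbols, single embryos; vertical marks, means). Mpped1 lies highest at a mean of 84.7 and Slc17a7 lowest at 0.135; Control embryo 3 (diamonds) lies to the left for the Neurod genes, Eomes and Slc17a7.

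The 3 genes below the filter had at most 9 counts in any library. The LIM factor gene Lhx9 had 1, 1 and 1 counts in the controls, 0, 9 and 0 in the Islet1Cre;Ebf1fl/- embryos and 0, 1 and 0 in the Dlx5/6::Cre;Ebf1fl/- embryos. Neurog1, a proneural gene, had 1 count in Control embryo 1, 1 in Dlx5/6::Cre;Ebf1fl/- embryo 1 and 0 in every other embryo. Both genes are thus at or below the floor of 3 counts in all libraries, apart from Lhx9 in Islet1Cre;Ebf1fl/- embryo 2. Trp73, which marks Cajal-Retzius cells of the cortical surface, had 3, 7 and 8 counts in controls, 2, 1 and 1 in Islet1Cre;Ebf1fl/- and 2, 0 and 3 in Dlx5/6::Cre;Ebf1fl/- embryos. The Islet1Cre;Ebf1fl/- counts lay below those of the controls, the Dlx5/6::Cre;Ebf1fl/- counts met them at 3, and no difference was tested at this depth.

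Pou3f1 was the only listed gene that passed the test in a comparison of a mutant with the controls. It encodes a POU factor, also called Oct6, of upper layer cortical neurons and of several other neural cell types. Controls had 37.2, 50.4 and 42.9 CPM, Islet1Cre;Ebf1fl/- embryos 88.4, 76.0 and 74.2 CPM, and Dlx5/6::Cre;Ebf1fl/- embryos 89.3, 67.0 and 87.6 CPM. Every mutant embryo lay above every control, and the mutant genotypes overlapped each other. Pou3f1 rose by a log2 fold change of 0.86 ± 0.15 (SE; edgeR quasi-likelihood test, Benjamini-Hochberg adjusted p = 0.0256) in Islet1Cre;Ebf1fl/- and of 0.91 ± 0.15 (edgeR adjusted p = 0.0107) in Dlx5/6::Cre;Ebf1fl/- embryos. These comparisons share their controls. Between the mutants the log2 difference was 0.05, with a 95% interval from -0.27 to 0.38. The gene lies at chr4:124656807-124660655 on the plus strand (GRCm38), and 8.57% of its exon bases overlap the antisense gene Gm2164. With an embryo left out, the adjusted p for Islet1Cre;Ebf1fl/- rose to as much as 0.135 and the call was lost in 5 of 9 cases, namely without Control embryo 1 (adjusted p = 0.11) or 3 (0.0903) and without Islet1Cre;Ebf1fl/- embryo 1 (0.135), 2 (0.108) or 3 (0.0508). For Dlx5/6::Cre;Ebf1fl/- the call was lost without Control embryo 1 (adjusted p = 0.0514). With the letters of the embryo code as a covariate, which partly follow genotype, it was lost in both mutants (edgeR adjusted p = 0.0942 and 0.221).

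**Figure D2:**
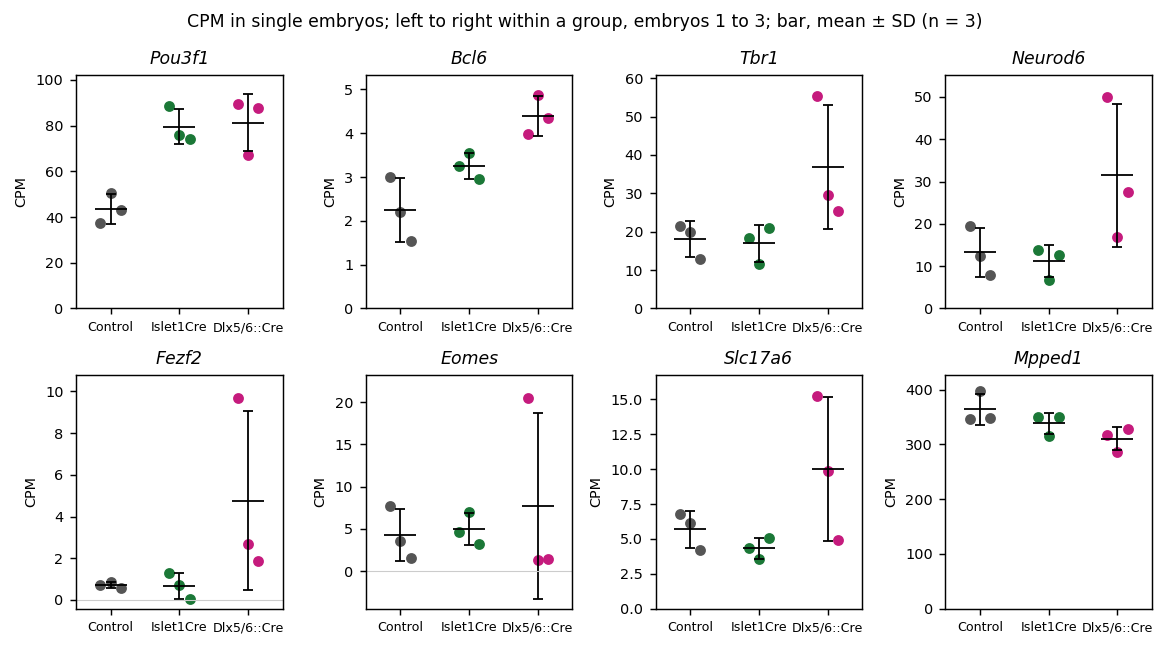
CPM of 8 of the genes in single embryos by genotype (points, embryos 1 to 3 from left to right; bars, mean ± SD, n = 3). For Pou3f1 every mutant embryo lies above every control, whereas for Tbr1, Neurod6, Fezf2, Eomes and Slc17a6 the highest point is Dlx5/6::Cre;Ebf1fl/- embryo 1.

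In Islet1Cre;Ebf1fl/- embryos the listed genes as a group lay close to the controls. Pou3f1 made 1 of 29 genes called higher, where 0.47% of all genes tested were called higher, and 0 were called lower, where 0.501% of all were. The median log2 fold change of the 29 genes was -0.05, beside a median near 0 over all genes, and 10 of 29 were above 0, where 49.5% of all genes were. At an unadjusted p below 0.05, Pou3f1 and Tle4 were higher, 2 of 29 against 3.97% of all genes, and Mdga1 was lower, 1 of 29 against 3.96%. Tle4 had 107.7, 125.8 and 148.6 CPM in controls and 163.4, 181.0 and 158.3 CPM in Islet1Cre;Ebf1fl/- embryos, without overlap, and its log2 fold change of 0.38 did not pass the threshold (edgeR adjusted p = 0.313). Mdga1, a membrane-anchored adhesion gene of upper layer neurons, had 52.2, 38.4 and 42.3 CPM in controls and 24.3, 24.1 and 33.4 CPM in Islet1Cre;Ebf1fl/- embryos. Every embryo of that mutant lay below every control for Mdga1, the only 1 of the 29 tested genes of which this held, where it held for 6.54% of all genes tested. It had a log2 fold change of -0.72 (edgeR adjusted p = 0.125), and it was called lower when Dlx5/6::Cre;Ebf1fl/- embryo 1 was left out of the shared fit. That fit called 1.21% of all genes lower and 1.18% higher in this comparison, Pou3f1 being the listed gene called higher. Among genes above in every embryo there were 3 listed genes, Emx2, Pou3f1 and Tle4, where 8.82% of all genes tested were. Tbr1 (log2 fold change -0.12), Neurod6 (-0.27), Slc17a6 (-0.41) and Emx1 (-0.27) had 95% intervals that spanned 0.

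In Dlx5/6::Cre;Ebf1fl/- embryos the median log2 fold change of the 29 genes was 0.87 over controls, beside 0.01 over all genes, but 1 gene alone was called. This was Pou3f1, 1 of 29 where 1.05% of all genes tested were called higher, and 0 of 29 were called lower, where 1.34% of all were. At an unadjusted p below 0.05, 16 of 29 were higher, where 7.91% of all genes were, and 1, Mpped1, was lower, where 7.62% were. Estimates were above 0 for 25 of 29, where 52.3% of all genes were. For 7 genes, Bcl6, Emx2, Fezf2, Pou3f1, Sstr2, Tbr1 and Zbtb18, every embryo lay above every control, where 9.29% of all genes did, and for Mpped1 every embryo lay below, where 11.5% of all did. Against Islet1Cre;Ebf1fl/- embryos the median was 0.86. There edgeR called 0 listed genes and 0% of all genes in either direction, DESeq2 called 1, Fezf2, among 18 genes in all, and 13 of 29 were higher at an unadjusted p below 0.05, where 2.41% of all genes were, with 0 of 29 lower, where 2.74% of all were. Every Dlx5/6::Cre;Ebf1fl/- embryo lay above every Islet1Cre;Ebf1fl/- embryo for 11 of 29 (3.96% of all genes) and below for 0 (6.09%), and 25 of 29 estimates were above 0 (53.3%). The contrasts of Dlx5/6::Cre;Ebf1fl/- share those embryos, so they do not stand as separate evidence of a difference. All Dlx5/6::Cre;Ebf1fl/- embryos have D and all Islet1Cre;Ebf1fl/- embryos IE as letters of the embryo code. Between the mutants, genotype and code letters therefore cannot be told apart.

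Embryo 1 of this genotype set much of these values. It had the highest value of all 9 embryos for 22 of the 29 genes (75.9%), while it was the highest for 23.1% of all genes tested. It had the lowest value for 0 of the 29, and for 21.7% of all genes tested. All 29 genes also passed the filter on low counts without it. Its CPM was 8.87 times the mean of the other 8 embryos for Fezf2, 7.08 times for Neurog2 and 5.38 times for Eomes. Over all 32 genes its summed level was 1474 CPM, against 951 to 1129 CPM in the other 8. Mpped1, Tle4 and Cux1 made up 43.3% of that sum in this embryo and 57.1% to 69.1% in the others, and without these 3 genes the sums were 836 CPM against 294 to 463 CPM. At the other end, Control embryo 3 had the lowest value for 12 of 29 genes (41.4%, against 10.1% of all genes). Islet1Cre;Ebf1fl/- embryo 2 was lowest for 7 (24.1%, against 8.76% of all genes).

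**Figure D3:**
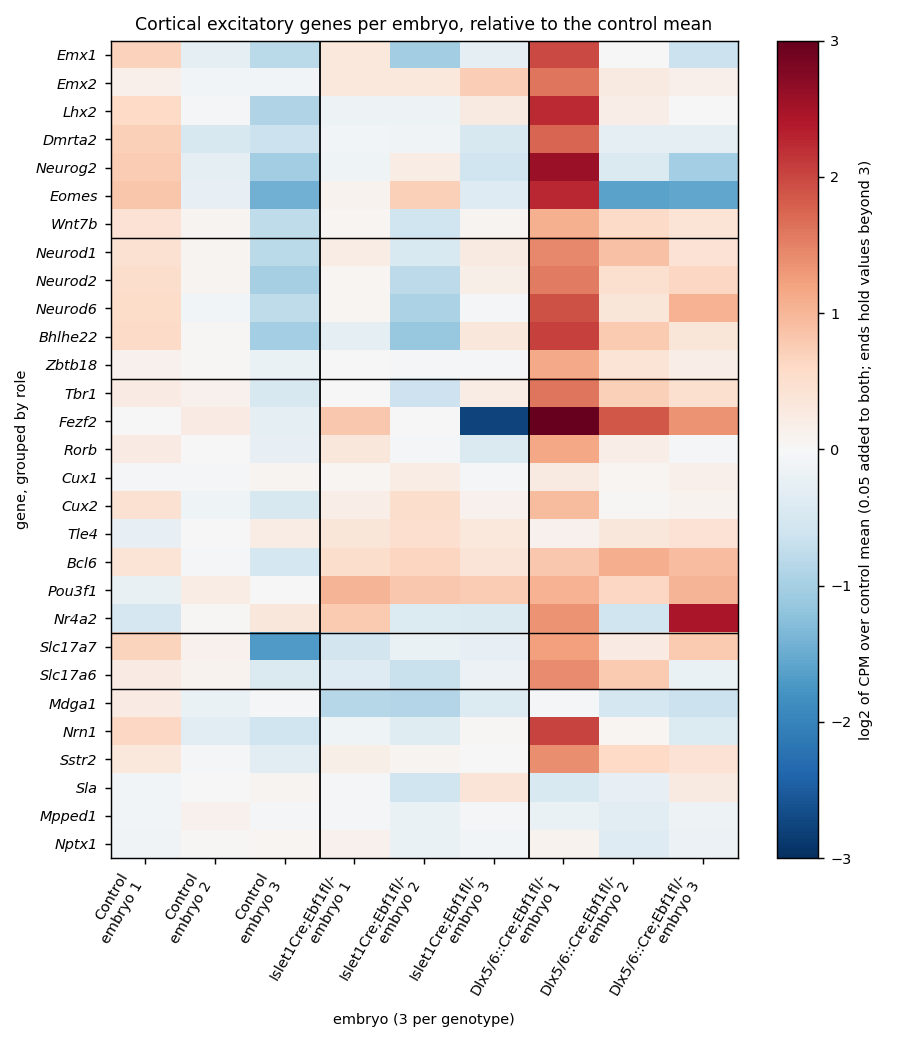
Log2 ratio of CPM to the control mean (0.05 CPM added to both) for the 29 genes tested, in rows grouped by role, and the 9 embryos in columns; red is above and blue below the control mean, and values beyond 3 are drawn at the end of the scale. The column of Dlx5/6::Cre;Ebf1fl/- embryo 1 is the highest of the 9 for 22 genes, and in the Pou3f1 row the 6 mutant embryos are all above the controls.

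Without that embryo, the median log2 fold change of Dlx5/6::Cre;Ebf1fl/- over controls was 0.32, and it was 0.14 over Islet1Cre;Ebf1fl/-. Against Islet1Cre;Ebf1fl/-, 9 of 29 had an unadjusted p below 0.05 without it and 13 with it, counting both directions. The share of all genes in the fit without it is not given here, so the 9 are not set against a background. Among the 9, Eomes was lower (log2 fold change -1.83). After adjustment edgeR called 0 listed genes in that comparison, and 2 genes in all. At an unadjusted p below 0.05, 8 of 29 genes were then higher than in controls (8.89% of all genes) and 2 were lower, Eomes and Mdga1 (8.36%). After adjustment 2 were called higher, Pou3f1 (edgeR adjusted p = 0.0124) and Bcl6 (edgeR adjusted p = 0.0355), where 2.09% of all genes were, and 0 lower, where 1.59% were. Bcl6, a zinc finger repressor that drives neuronal differentiation in the cortex, had 3.00, 2.20 and 1.55 CPM in controls, 3.26, 3.54 and 2.96 CPM in Islet1Cre;Ebf1fl/- and 3.98, 4.87 and 4.34 CPM in Dlx5/6::Cre;Ebf1fl/- embryos. The 3 Dlx5/6::Cre;Ebf1fl/- embryos were the highest of all 9, and embryo 1 was the lowest of them. Its log2 fold change over controls was 0.98 ± 0.24 with all embryos (edgeR adjusted p = 0.0623) and 1.05 ± 0.24 without embryo 1.

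**Figure D4:**
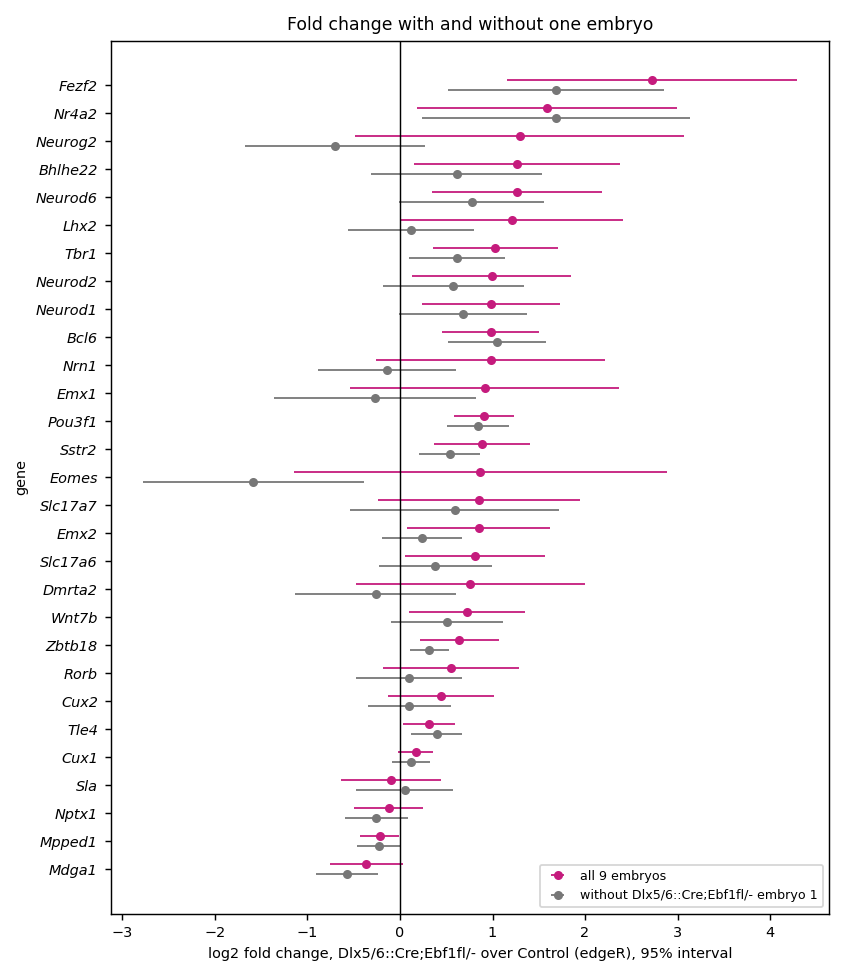
Log2 fold change of Dlx5/6::Cre;Ebf1fl/- over Control for the 29 genes (points, edgeR estimates; lines, 95% intervals) from all 9 embryos and without Dlx5/6::Cre;Ebf1fl/- embryo 1. The estimates of Eomes, Neurog2, Emx1, Dmrta2 and Nrn1 lie above 0 with it and below 0 without it; those of Pou3f1, Bcl6, Tle4 and Nr4a2 move little.

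The pallial progenitor and patterning genes depended most on embryo 1. Their 7 tested members had a median log2 fold change of 0.87 over controls with it and -0.26 without it. Eomes, which encodes the T-box factor Tbr2 of intermediate progenitors, had 7.66, 3.56 and 1.55 CPM in controls, 4.58, 7.06 and 3.26 CPM in Islet1Cre;Ebf1fl/- and 20.5, 1.36 and 1.42 CPM in Dlx5/6::Cre;Ebf1fl/- embryos. It thus held both the highest and the lowest embryos within 1 genotype, with 15.1-fold between extremes, the largest ratio among the well-counted genes (a mean normalized count of at least 100). Its log2 fold change over controls was 0.87 ± 0.91 with embryo 1 and -1.58 ± 0.54 without it (edgeR adjusted p = 0.16). Neurog2 had 4.72, 2.28 and 1.33 CPM in controls, 2.51, 3.23 and 1.81 CPM in Islet1Cre;Ebf1fl/- and 17.02, 2.03 and 1.34 CPM in Dlx5/6::Cre;Ebf1fl/- embryos. Emx1, a homeobox gene of pallial progenitors and their excitatory progeny, had 2.05, 1.02 and 0.694 CPM in controls, 1.59, 0.578 and 1.03 CPM in Islet1Cre;Ebf1fl/- and 5.09, 1.27 and 0.789 CPM in Dlx5/6::Cre;Ebf1fl/- embryos. For both, Dlx5/6::Cre;Ebf1fl/- embryos 2 and 3 lay within the range of the controls. Without embryo 1 the log2 fold change over controls went from 1.29 to -0.70 for Neurog2 and from 0.92 to -0.27 for Emx1. Lhx2, a LIM homeobox selector of cortical identity, reached 43.7 CPM in embryo 1, against 4.86 to 13.9 CPM in the other 8. Emx2 (8.74 against 2.68 to 4.77 CPM) and Dmrta2 (4.69 against 0.852 to 2.27 CPM) had the same order. Without embryo 1 the log2 fold changes of Lhx2, Emx2 and Dmrta2 went from 1.21, 0.85 and 0.76 to 0.12, 0.23 and -0.26. Wnt7b, a secreted Wnt ligand, differed less between embryos, with 44.1 CPM in embryo 1 and 31.1 and 27.9 CPM in embryos 2 and 3, against 12.3 to 28.3 CPM elsewhere.

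The differentiation factors of postmitotic glutamatergic neurons kept values above 0 without embryo 1, but none passed the test. Their median log2 fold change over controls was 0.99 with it and 0.61 without it, and all 5 estimates stayed positive. Neurod6, a basic helix-loop-helix factor of postmitotic cortical neurons, had 19.5, 12.5 and 7.80 CPM in controls, 13.9, 6.82 and 12.8 CPM in Islet1Cre;Ebf1fl/- and 50.01, 16.9 and 27.6 CPM in Dlx5/6::Cre;Ebf1fl/- embryos. Dlx5/6::Cre;Ebf1fl/- embryos lay above all Islet1Cre;Ebf1fl/- embryos but overlapped the controls, and the log2 fold change over controls was 1.26 ± 0.42 (edgeR adjusted p = 0.172) and 0.77 ± 0.36 without embryo 1. Bhlhe22, a related factor of projection neuron identity, had 6.83, 4.74 and 2.24 CPM in controls, 3.83, 2.07 and 5.86 CPM in Islet1Cre;Ebf1fl/- and 19.1, 7.96 and 5.97 CPM in Dlx5/6::Cre;Ebf1fl/- embryos, which overlapped the controls. Its log2 fold change over controls was 1.26 with embryo 1 and 0.61 without it. Zbtb18 had 82.3, 77.7 and 66.1 CPM in controls, 76.5, 73.9 and 73.7 CPM in Islet1Cre;Ebf1fl/- and 165.3, 99.7 and 86.0 CPM in Dlx5/6::Cre;Ebf1fl/- embryos. For Zbtb18 every Dlx5/6::Cre;Ebf1fl/- embryo was above the other 6, with a log2 fold change of 0.64 ± 0.19 over controls (edgeR adjusted p = 0.132) and 0.32 ± 0.10 without embryo 1. Neurod1 and Neurod2 had log2 fold changes of 0.98 and 0.99 and overlapping groups, and 0.68 and 0.58 without embryo 1. In Neurod1, 7.36% of exon bases are shared with Cerkl on the same strand.

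Among the layer and area transcription factors, Tbr1 and Fezf2, like Bcl6, were higher in every Dlx5/6::Cre;Ebf1fl/- embryo than in the other 6. Tbr1, the T-box factor of early-born deep layer neurons, had 21.5, 19.9 and 12.9 CPM in controls, 18.2, 11.7 and 20.97 CPM in Islet1Cre;Ebf1fl/- and 55.3, 29.6 and 25.4 CPM in Dlx5/6::Cre;Ebf1fl/- embryos. The log2 fold change over controls, 1.03 ± 0.31, did not pass the threshold (edgeR adjusted p = 0.129) and was 0.62 ± 0.23 without embryo 1. Fezf2, which specifies subcerebral projection neurons, was rare, with 0.704, 0.856 and 0.568 CPM in controls, 1.28, 0.699 and 0.0604 CPM in Islet1Cre;Ebf1fl/- and 9.67, 2.69 and 1.87 CPM in Dlx5/6::Cre;Ebf1fl/- embryos. Its lowest value is a single count. The log2 fold change of Fezf2 over controls was 2.72 ± 0.71 (edgeR adjusted p = 0.0819), and 1.68 ± 0.53 without embryo 1 (edgeR adjusted p = 0.125). The orphan nuclear receptor gene Nr4a2 followed another order, with 3.87, 0.968 and 8.37 CPM in Dlx5/6::Cre;Ebf1fl/- embryos against 1.04 to 2.60 CPM in the other 6, so that embryo 3 and not embryo 1 was highest and embryo 2 the lowest of all. Cux1, Cux2 and Rorb, factors of upper and middle layers, had log2 fold changes over controls of 0.17, 0.44 and 0.55 with adjusted p from 0.377 to 0.454 (edgeR), and of 0.12, 0.10 and 0.10 without embryo 1. Tle4 in Dlx5/6::Cre;Ebf1fl/- embryos was at 139.4, 160.4 and 171.8 CPM and overlapped the controls.

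Both vesicular glutamate transporter genes were low in every embryo. Slc17a7 had 1.19, 0.803 and 0.189 CPM in controls, 0.485, 0.626 and 0.604 CPM in Islet1Cre;Ebf1fl/- and 1.79, 0.877 and 1.29 CPM in Dlx5/6::Cre;Ebf1fl/- embryos. Dlx5/6::Cre;Ebf1fl/- embryos were above Islet1Cre;Ebf1fl/- embryos and overlapped the controls. Slc17a6, used by early cortical and by thalamic neurons, had 6.77, 6.13 and 4.20 CPM in controls, 4.36, 3.59 and 5.08 CPM in Islet1Cre;Ebf1fl/- and 15.2, 9.86 and 4.92 CPM in Dlx5/6::Cre;Ebf1fl/- embryos, and all groups overlapped. Log2 fold changes of Dlx5/6::Cre;Ebf1fl/- over controls were 0.86 ± 0.49 for Slc17a7 and 0.81 ± 0.34 for Slc17a6, with edgeR adjusted p of 0.429 and 0.287. Without embryo 1 they were 0.59 ± 0.51 and 0.38 ± 0.28.

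The surface, secreted and signalling genes did not move as a group, with a median log2 fold change over controls of -0.11 in Dlx5/6::Cre;Ebf1fl/- embryos and -0.18 without embryo 1. Mdga1 had 43.6, 30.7 and 28.1 CPM in Dlx5/6::Cre;Ebf1fl/- embryos, which overlapped the controls. Its log2 fold change over controls was -0.37 ± 0.18 (edgeR adjusted p = 0.352), and -0.57 ± 0.15 without embryo 1 (edgeR adjusted p = 0.0647). Mpped1 had 346.4, 397.4 and 347.9 CPM in controls, 350.0, 316.2 and 349.8 CPM in Islet1Cre;Ebf1fl/- and 317.9, 286.3 and 327.7 CPM in Dlx5/6::Cre;Ebf1fl/- embryos. Dlx5/6::Cre;Ebf1fl/- embryos were below every control by a small margin, with a log2 fold change of -0.22 ± 0.10 (edgeR adjusted p = 0.304). Sstr2 had 20.7, 16.0 and 13.2 CPM in controls, 18.8, 17.6 and 16.9 CPM in Islet1Cre;Ebf1fl/- and 44.1, 25.3 and 22.5 CPM in Dlx5/6::Cre;Ebf1fl/- embryos. The latter lay above all 6 others, with a log2 fold change over controls of 0.89 ± 0.23 (edgeR adjusted p = 0.0858) and 0.54 ± 0.15 without embryo 1. Nrn1, a neurotrophic surface protein gene, was at 9.42 CPM in embryo 1 against 1.48 to 3.55 CPM elsewhere, but 22.3% of its exon bases overlap Fars2 on the other strand. Its log2 fold change over controls was 0.98 with embryo 1 and -0.14 without it. The adaptor gene Sla and the pentraxin gene Nptx1 had log2 fold changes of -0.10 and -0.12, and 0.05 and -0.26 without embryo 1.

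Embryo 1 of Dlx5/6::Cre;Ebf1fl/- also differed in markers of other cell types, whose part in these results was not tested. All 7 radial glia and astrocyte markers were highest in it, with a summed level of 1221 CPM against 564 to 795 CPM in the other 8, and Vim, an intermediate filament of radial glia, was at 280 CPM against 82.0 to 109 CPM. Among these markers, Gfap did not pass the filter on low counts. Pax6 is also in the further list of cortical excitatory genes given below, so the lists are not separate descriptions of this embryo. Of 10 ganglionic eminence progenitor and interneuron markers, 4 were highest there, among them Dlx1 (343 against 87.0 to 190 CPM), Dlx2 (203 against 36.5 to 79.9 CPM) and Gsx2 (14.8 against 1.70 to 2.89 CPM). The other 6 were at their lowest there, namely Nkx2-1 (15.4 CPM), Lhx6 (46.2), Lhx8 (17.4), Sst (71.97), Npy (47.8) and Chat (3.69). Dlx1, Dlx2 and Gsx2, progenitor factors of the ventral telencephalon, were thus at their highest in the same embryo as those of the pallium, and interneuron markers were at their lowest. The sum of the SPN markers was lowest there, at 2586 CPM against 3122 to 3664 CPM, with 1 of 14 markers at its highest. Summed levels of the other lists in this embryo were within or near the range of the rest: 117.8 CPM for 4 endothelial markers (91.1 to 127.6 elsewhere), 72.7 for 4 microglia markers (63.7 to 76.6), 137.9 for 4 oligodendrocyte lineage markers (118.9 to 200.5) and 365.8 for 5 red blood cell genes (274.1 to 578.0). It had 9.85 CPM of 4 meningeal fibroblast markers (3.93 to 8.11 elsewhere), 0.609 CPM of 3 choroid plexus markers (0.674 to 2.16) and 137.7 CPM of 8 thalamic markers (154.3 to 196.8). Most of the thalamic sum was Foxp2, which dSPN also express, and without Foxp2 it was 39.7 CPM against 20.1 to 38.8 CPM. That remainder includes Slc17a6, itself a listed gene, at 15.2 CPM in this embryo against 3.59 to 9.86 CPM elsewhere. It is thus no separate sign of thalamic RNA. The 7 Cajal-Retzius markers summed to 44.5 CPM there against 52.6 to 205.4 CPM, mostly Reln, while Lhx1 and Lhx5 stayed at or under 0.151 CPM everywhere. Reln, the secreted glycoprotein gene, fell by 2.07 on the log2 scale in Dlx5/6::Cre;Ebf1fl/- embryos (edgeR adjusted p = 0.00529). The paper names it a striatum-enriched gene that is reduced in both mutants. It was at 31.3 to 43.7 CPM in Dlx5/6::Cre;Ebf1fl/- and 52.6 to 129.0 CPM in Islet1Cre;Ebf1fl/- embryos, against 132.4 to 191.3 CPM in controls. The low Cajal-Retzius sum is thus not particular to embryo 1.

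**Figure D5:**
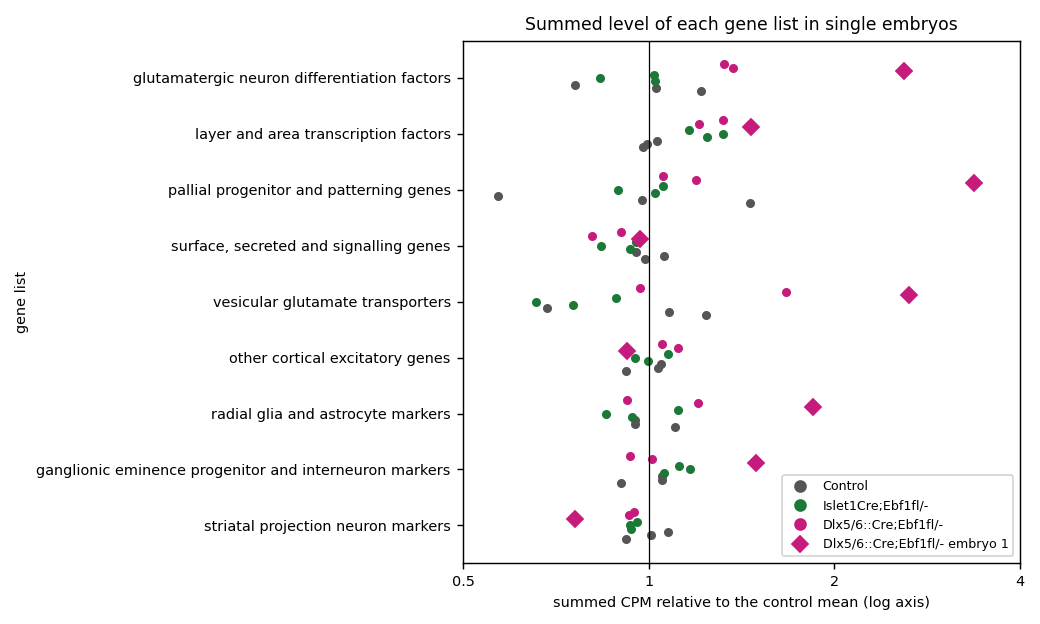
Summed CPM of gene lists in each embryo relative to the control mean (log axis; circles, single embryos; diamonds, Dlx5/6::Cre;Ebf1fl/- embryo 1). In that embryo the lists of pallial progenitor genes, glutamatergic differentiation factors, glutamate transporters, radial glia and ganglionic eminence markers lie above all other embryos, and the SPN markers lie below.

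The genes that followed Neurod6 most closely across embryos included several other genes of cortical projection neurons. Among 12050 genes with a mean normalized count of at least 100, the 10 with the highest Pearson r of log2 CPM with Neurod6 over the 9 embryos included 4 listed genes, Neurod2 (0.970), Tbr1 (0.943), Wnt7b (0.939) and Bhlhe22 (0.927). Tfap2d (0.932), Vsir (0.959), Maf1 (0.944), Irf2bp1 (0.941) and Pop1 (0.933) were also among them, and the last 4 differed little in level between embryos. Over the 8 embryos without Dlx5/6::Cre;Ebf1fl/- embryo 1, r was 0.943 for Neurod2, 0.908 for Wnt7b and 0.880 for Tbr1. Without Islet1Cre;Ebf1fl/- embryo 2 as well, r was 0.915 for Neurod2 and 0.803 for Tbr1. Some of the pallial progenitor genes parted from Neurod6 once embryo 1 was left out. There r fell from 0.619 to -0.05 for Neurog2, from 0.387 to -0.27 for Eomes and from 0.660 to 0.061 for Emx2. Others in the same list did not, as r stayed at 0.908 for Wnt7b and went from 0.834 to 0.621 for Lhx2. These correlations describe 9 libraries that share genotype and depth differences, and carry no test.

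In a further list of 20 cortical excitatory genes, only Foxo1, a forkhead factor of insulin signalling, passed the test, and it did so in Dlx5/6::Cre;Ebf1fl/- embryos. It had 73.0, 65.1 and 92.0 CPM in controls, 39.5, 43.6 and 65.9 CPM in Islet1Cre;Ebf1fl/- and 17.4, 31.2 and 33.0 CPM in Dlx5/6::Cre;Ebf1fl/- embryos. Dlx5/6::Cre;Ebf1fl/- embryos lay below all others, and Foxo1 fell by 1.48 on the log2 scale against controls (edgeR adjusted p = 0.0134). It was 1 of 20 called lower, where 1.34% of all genes were, and the call was lost without Control embryo 1 or 3. A place on this list, too, does not say which cells made the RNA. Over the 9 embryos, r of log2 CPM with Neurod6 was -0.706 for Foxo1 and 0.895 for Sox5, another gene of the list. In Islet1Cre;Ebf1fl/- embryos edgeR called 0 of the 20, where 0.47% of all genes were called higher and 0.501% lower. At an unadjusted p below 0.05, 3 were higher (3.97% of all genes) and 1 lower (3.96%), and DESeq2 called 0. The median log2 fold change of the 20 in Dlx5/6::Cre;Ebf1fl/- embryos was 0.58 with embryo 1 and 0.39 without it. In embryo 1, 10 of 20 were highest, where 23.1% of all genes tested were, among them Pax6, Sox5 and Tfap2c. Nrgn, a postsynaptic calmodulin-binding protein gene, and Hs3st4, a heparan sulfate sulfotransferase gene, were not among these. Their values were 13.8 and 45.2 CPM in embryo 1, below those of Dlx5/6::Cre;Ebf1fl/- embryos 2 and 3 (28.4 and 27.5 CPM for Nrgn, 67.7 and 69.1 CPM for Hs3st4). Without embryo 1, both were called higher in each mutant than in controls. That fit called 1.18% of all genes higher in Islet1Cre;Ebf1fl/- and 2.09% in Dlx5/6::Cre;Ebf1fl/- embryos. Leaving this embryo out raised calls over all genes from 159 to 397 and from 392 to 613.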

How the data were processed

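Stranded poly(A) RNA-seq libraries were made from the striata of 9 embryos, 1 library per embryo. The deposited values are whole-number read counts per Ensembl gene. The authors aligned reads with STAR 2.4.0k to mm10, removed reads with several matches, and counted reads over Ensembl 81 genes with HTSeq-count 0.5.3. The strand setting of the counting is not given in the sources used here, so overlapping antisense genes cannot be told apart. The submitters' notes also name DESeq 1.8.3; the authors' own result tables were not used here. Embryos were taken as replicates (3 per genotype). Groups were taken from the sample labels.

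Counts as deposited were fitted over all genes with edgeR 4.0.16 in R 4.3.3 (quasi-likelihood test, TMM scaling, filterByExpr with a minimum count of 10, all 9 embryos, genotype as the only term). Genes were called at a Benjamini-Hochberg adjusted p below 0.05. CPM were computed from library totals, and levels between genes were divided by the union of annotated exons. Alternatives were DESeq2 1.42.0, its size factors, other filters, the 6 embryos of a comparison, a replicate block, a covariate for the letters of the embryo code, and each embryo left out. The fitting step was tested on simulated data. The floor of 3 counts covers counting error only.

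The 32 genes, the gene lists and the comparisons were chosen with earlier results of these data known. Values per embryo are given by rule for genes called in any comparison, the 5 highest and 3 lowest in level per kilobase, Tbr1, Neurod6, Slc17a7, Slc17a6, Emx1, Eomes and Trp73, and the 3 with the largest ratio of highest to lowest embryo among well-counted genes; Fezf2, Bcl6, Mdga1, Nrgn, Hs3st4 and the progenitor markers were added after their values were seen. The closest genes to Neurod6 and the called genes of the further cortical list are also named by rule, except for a gene that is not reported here.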

Additional observations from a re-analysis of the deposited data

How the results depend on the processing

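Pou3f1 was the only listed gene called in either mutant, and the counts of calls changed with the method. In Islet1Cre;Ebf1fl/- against Control, 1 of the listed genes was called, 2 with DESeq2, without the filter on low counts, or with the 6 embryos of the comparison alone (Mdga1 was added), 0 with a replicate block (Pou3f1 adjusted p = 0.0522, edgeR), 0 with the letters of the embryo code added as a covariate, and 0 to 2 when single embryos were left out. In Dlx5/6::Cre;Ebf1fl/- against Control, 1 was called, 6 with DESeq2 (Bcl6, Fezf2, Sstr2, Tbr1 and Zbtb18 were added), 7 without the filter (Neurod6 in addition), 3 with a replicate block, 0 with the code letters, and 1 to 2 when single embryos were left out. Without Control embryo 1 the gene called was Bcl6 and not Pou3f1. Between the mutants, 0 were called and 1 with DESeq2. Leaving out both Dlx5/6::Cre;Ebf1fl/- embryo 1 and Islet1Cre;Ebf1fl/- embryo 3, an alternative chosen after seeing the data, gave 2 and 3 calls against Control. These were Mdga1 and Pou3f1 in Islet1Cre;Ebf1fl/-, and Fezf2, Mdga1 and Pou3f1 in Dlx5/6::Cre;Ebf1fl/- embryos. Bcl6, called without Dlx5/6::Cre;Ebf1fl/- embryo 1 alone, was not among them. The letter is D for Control embryo 3 and all Dlx5/6::Cre;Ebf1fl/- embryos, and IE for the others. It thus follows genotype partly against Control and fully between the mutants. With the code letters as a covariate, Pou3f1 had adjusted p of 0.0942 and 0.221 (edgeR). Over all genes, calls in Islet1Cre;Ebf1fl/- and Dlx5/6::Cre;Ebf1fl/- against Control numbered 159 and 392 with edgeR, 401 and 862 with DESeq2, 311 and 708 without the filter, 259 and 181 with the 6 embryos, 143 and 363 with the block, 61 and 32 with the code letters, 15 to 397 and 143 to 613 with single embryos left out, and 333 and 501 without both embryos.

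Of the further cortical list, 0 genes were called in Islet1Cre;Ebf1fl/- (0 to 2 with single embryos left out) and 1 in Dlx5/6::Cre;Ebf1fl/- embryos, with 6 under DESeq2, 6 without the filter, 2 with the replicate block, 0 with the code letters, and 0 to 3 with single embryos left out. Summed levels of the 32 genes averaged 1009 CPM in Control, 1055 CPM in Islet1Cre;Ebf1fl/- and 1220.1 CPM in Dlx5/6::Cre;Ebf1fl/- embryos. Without Mpped1, Tle4 and Cux1 they were 367.3, 389.7 and 584.4 CPM, and DESeq2 size factors gave 1011 CPM for Islet1Cre;Ebf1fl/-. Embryos with the same number did not deviate together (mean correlation -0.028, against 0.015 for different numbers), so the numbers were not taken as pairs, and the block is given only here. The cause of these changes was not tested. No count of calls or summed level could change sign, and the log2 fold change of Pou3f1 kept its direction in all alternatives run. Without Dlx5/6::Cre;Ebf1fl/- embryo 1, estimates over Control changed sign for Emx1, Dmrta2, Neurog2, Eomes, Nrn1 and Sla, none of them called, and the median of the pallial progenitor genes went from 0.87 to -0.26. With 3 embryos a group, an exact permutation test on 1 gene could not reach a p under 0.1. For genes at a few counts, such as Trp73, depth limits any comparison.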
